A study of Rattus norvegicus with 10 samples.

Results

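The cell division genes are 52 genes that drive or carry out the mitotic cell cycle, and their RNA was compared between rat hippocampal cultures treated with tetrodotoxin (TTX) and cultures given vehicle. The members were chosen by name, with earlier results of these data known. They are 9 genes of G1 (the D and E cyclins, their kinases and the transcription factor E2f1) and 14 genes of S phase. The others are 26 genes of G2 and mitosis and 3 inhibitors of cyclin-dependent kinases (CDKs). Of the 52, 51 were present among the 14354 genes of the deposited table, and all 51 passed the filter on low counts that left 13088 genes for testing. The RNA of the motor protein gene Cenpe was not analysed here, and this gene enters only the search of promoters below. In the TTX libraries 36 members fell, 5 rose and 10 did not pass the test, at a Benjamini-Hochberg adjusted p under 0.05 from edgeR's quasi-likelihood test. TTX changed much of the transcriptome: of all tested genes, 35% were called lower, 35.4% higher and 70.5% in either direction, so the members' 36 calls of lower stand against a background of 35%. The falls of the members lay mostly in G2 and mitosis, where 24 of 25 tested genes fell, while of the 9 G1 genes 3 fell and 3 rose.

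The cell cycle passes through ordered phases. In G1, mitogen signals raise D-type cyclins, which with Cdk4 and Cdk6 phosphorylate the retinoblastoma protein and release E2F transcription factors, and these turn on the genes of DNA replication. Cyclins A and B with Cdk1 then drive mitosis, whose genes are repressed outside G2 and M by a complex that binds CHR elements in their promoters. In hippocampal cultures neurons have left the cycle, and the cells that can still divide include glia and their precursors and cells of vessels and meninges.

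Both groups were cultures of dissociated hippocampus from Sprague-Dawley rats at embryonic day 18, which hold neurons and glia together. The TTX group (5 samples) received 1 µM TTX, a blocker of sodium channels that stops action potentials, for 24 h from day 19 in vitro, and the vehicle group (5 samples) received vehicle for the same 24 h; RNA of all 10 samples was taken at day 20 in vitro. The labels do not say whether the samples came from separate dissections or dishes, so the p-values measure only how these samples spread, and that spread may be technical. Total counts ran from 58785925 to 84921962 in the TTX libraries and from 52254261 to 77757538 in the vehicle libraries. On the first principal component, with 69.7% of the variance, the TTX libraries lay at one end and the vehicle libraries at the other. TTX replicate 5 stood apart on the second component (4.65% of the variance), at 25.8, whereas the other TTX libraries lay between -10.9 and -1.64, and without it 36 members still fell and 5 still rose.

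Levels are given as CPM (counts scaled to library size, with TMM scaling), in the order of replicates 1 to 5, and means stand with the SD over the 5 libraries of a group. Fold changes are on the log2 scale, TTX over vehicle, so that a negative value is a lower level with TTX. Their median was -0.85 over the 51 members and 0.01 over all tested genes. A fall beyond 1.5-fold by its own test was found in 27 members, against 8.44% of all tested genes, and a rise beyond 1.5-fold in 0 members (5.35% of all genes); 0 members rose beyond it at an unadjusted p under 0.05 either, by edgeR or by limma-voom. Without that fold threshold 5 members rose. In 21 members the log2 fold change was below -1, against 6.03% of all genes. The 5 TTX libraries did not overlap the 5 vehicle libraries in 35 members on the lower side and 4 on the higher side, while 57.4% of all tested genes were without overlap. All 51 members had the same call in the authors' deposited table as here.

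**Figure D1:**
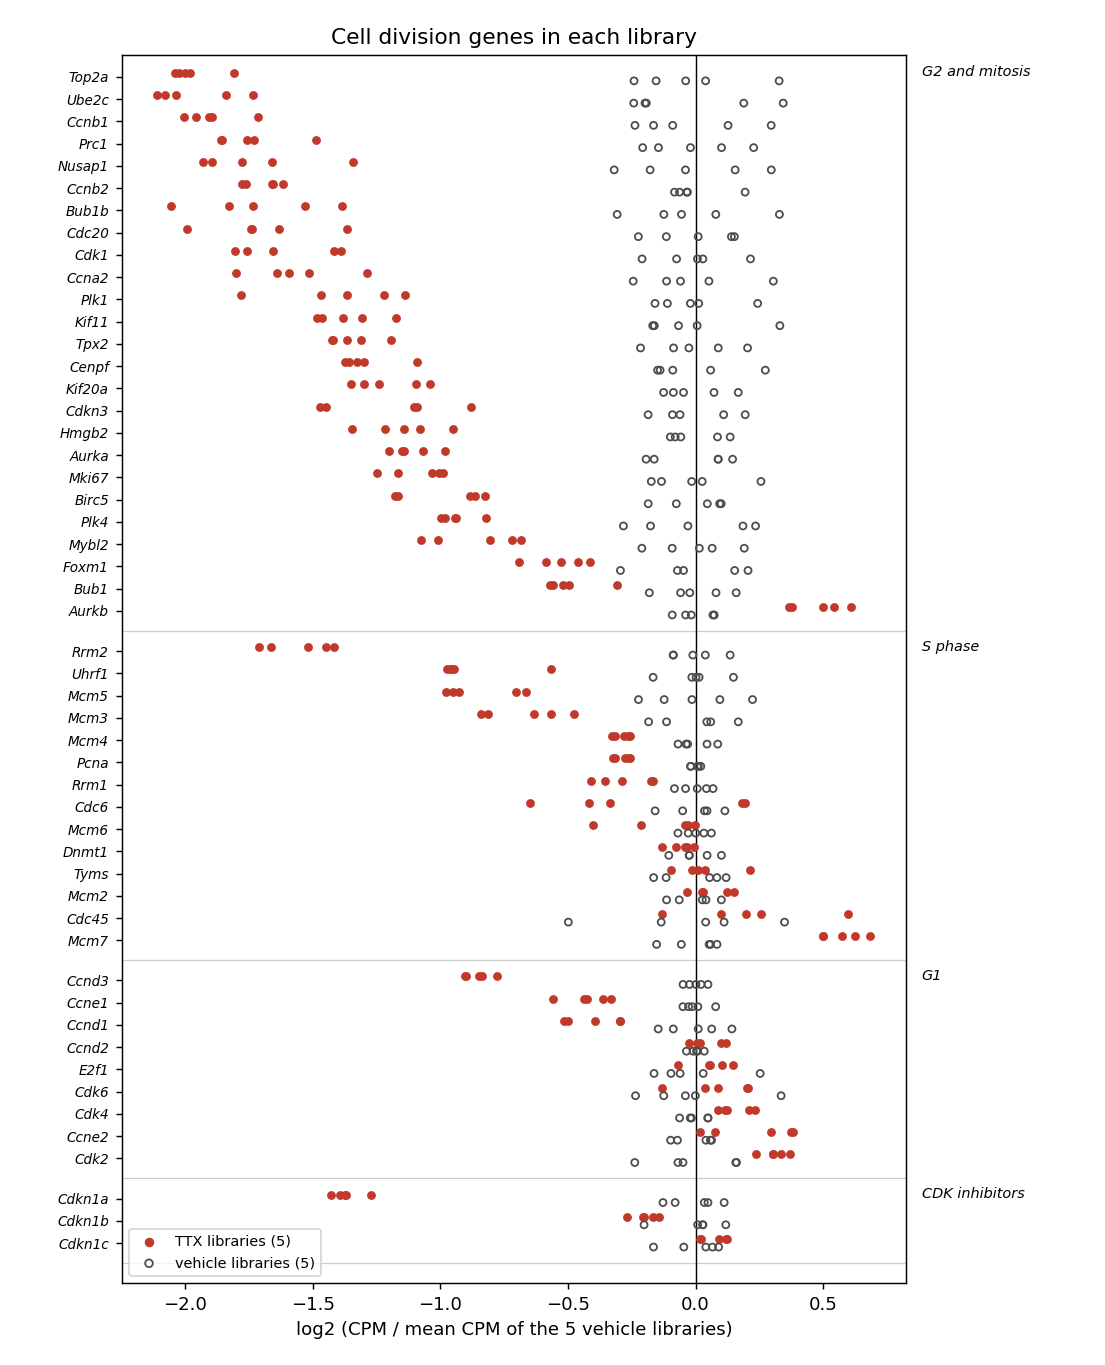
Level of each of the 51 tested cell division genes in each library, as log2 of its CPM over the mean CPM of the 5 vehicle libraries (x axis, with the genes down the page by phase and by change); filled points are TTX libraries and open points vehicle libraries. The medians given here differ slightly from the plotted value: they use log2 CPM with a prior count of 2, less the mean log2 CPM of the vehicle libraries. The median G2 and mitosis gene sits between -1.41 and -1.16 in the TTX libraries and between -0.15 and 0.22 in the vehicle libraries. By contrast, the median G1 gene sits between 0.01 and 0.10 in the TTX libraries and between -0.06 and 0.06 in the vehicle libraries.

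The genes of G2 and mitosis were lower with TTX almost throughout. Of the 25 tested, 24 fell and 1, Aurkb, rose. A fall beyond 1.5-fold was found in 22, 19 had a log2 fold change below -1, and in all 25 the TTX and vehicle libraries did not overlap. Of all tested genes, 35% were called lower, 8.44% fell beyond 1.5-fold, 6.03% lay below -1 and 57.4% were without overlap. The median log2 fold change of the 25 was -1.34, within a range from -1.97 for Top2a to 0.48 for Aurkb. The CPM of the 24 genes other than Aurkb, summed, came to 243, 249.8, 292, 265 and 239 CPM in the 5 TTX libraries, against 830.0, 637, 709, 729.6 and 633 CPM in the 5 vehicle libraries. Each TTX library held less than each vehicle library, and the mean sum was 258 ± 21.4 CPM with TTX and 708 ± 80.5 CPM with vehicle (SD, n = 5 each), 2.75-fold lower. RNA of the whole culture was measured, so fewer dividing cells and less RNA per dividing cell cannot be told apart.

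The cyclins that start mitosis and their kinase fell together. Ccnb1, the main mitotic cyclin B, had 10.4, 11.3, 12.7, 11.2 and 10.8 CPM in the 5 TTX libraries, against 51.4, 35.5, 39.3, 45.7 and 37.3 CPM in the 5 vehicle libraries. It fell 3.71-fold (log2 fold change -1.89 ± 0.094 SE, adjusted p = 2.34e-10), with vehicle replicate 1 the highest library and TTX replicate 3 the highest of its group. Ccnb2, the other mitotic cyclin B, had 8.54, 9.16, 9.18, 9.45 and 8.46 CPM in the 5 TTX libraries, against 33.1, 27.4, 27.7, 28.3 and 28.3 CPM in the 5 vehicle libraries. The TTX libraries stood close together below every vehicle library, among which replicate 1 was highest, and the level was 3.23-fold lower (log2 fold change -1.69 ± 0.059 SE, adjusted p = 4.7e-12). Cdk1, the kinase that both cyclins activate, had 12.8, 11.95, 15.4, 15.1 and 11.6 CPM in the 5 TTX libraries, against 46.9, 34.9, 41.2, 40.6 and 38.4 CPM in the 5 vehicle libraries. No TTX library came near the lowest vehicle library, and Cdk1 was 3.02-fold lower (log2 fold change -1.59 ± 0.090 SE, adjusted p = 9.45e-10). Ccna2, the cyclin of S phase and early mitosis, averaged 7.78 ± 1.03 CPM with TTX and 22.9 ± 3.40 CPM with vehicle and fell 2.94-fold (log2 fold change -1.56 ± 0.11 SE, adjusted p = 6.86e-09).

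Top2a, Prc1, Tpx2 and Kif20a, which were also among the 8 mitosis genes with the smallest p, fell as well. Top2a, the topoisomerase that untangles sister chromatids, had 16.6, 16.4, 18.7, 15.98 and 16.1 CPM in the 5 TTX libraries, against 82.4, 59.0, 63.9, 67.5 and 55.5 CPM in the 5 vehicle libraries. TTX replicate 3 was the highest of the TTX group and still far below vehicle replicate 5, the lowest of the vehicle group; Top2a fell 3.91-fold (log2 fold change -1.97 ± 0.091 SE, adjusted p = 1.01e-10), the lowest fold change among the 51 members. Prc1, which bundles microtubules of the central spindle, had 30.9, 33.1, 39.9, 33.7 and 30.9 CPM in the 5 TTX libraries, against 131, 96.9, 110.4, 120.1 and 101 CPM in the 5 vehicle libraries. Its TTX values did not overlap the vehicle values and were 3.32-fold lower on average (log2 fold change -1.73 ± 0.085 SE, adjusted p = 2.04e-10). Tpx2, which activates Aurora A and nucleates spindle microtubules, had 17.5, 16.8, 19.7, 16.8 and 18.2 CPM in the 5 TTX libraries, against 51.8, 42.4, 47.9, 44.2 and 38.8 CPM in the 5 vehicle libraries. The groups did not overlap, and Tpx2 fell 2.53-fold (log2 fold change -1.34 ± 0.072 SE, adjusted p = 5.2e-10). Kif20a, a kinesin of cytokinesis, had 18.4, 17.1, 21.2, 20.4 and 17.7 CPM in the 5 TTX libraries, against 48.9, 41.0, 45.8, 42.1 and 39.9 CPM in the 5 vehicle libraries. Here too the highest TTX library, replicate 3, lay below every vehicle library, and the fall was 2.29-fold (log2 fold change -1.20 ± 0.069 SE, adjusted p = 1.06e-09).

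Cdc20, which activates the anaphase-promoting complex, had 11.3, 12.1, 14.5, 11.2 and 9.43 CPM in the 5 TTX libraries, against 41.7, 34.7, 41.4, 37.8 and 32.1 CPM in the 5 vehicle libraries. TTX replicate 5 was lowest and TTX replicate 3 highest of the treated libraries, all of them below the vehicle libraries, and Cdc20 was 3.20-fold lower (log2 fold change -1.68 ± 0.10 SE, adjusted p = 1.72e-09). Ube2c, the ubiquitin-conjugating enzyme of the same complex, averaged 3.73 ± 0.435 CPM with TTX and 14.4 ± 2.77 CPM with vehicle and fell 3.86-fold (log2 fold change -1.95 ± 0.12 SE, adjusted p = 3.51e-09). Among the spindle checkpoint kinases, Bub1b fell 3.21-fold (log2 fold change -1.68 ± 0.13 SE, adjusted p = 2.14e-08), whereas Bub1 fell 1.40-fold (log2 fold change -0.48 ± 0.073 SE, adjusted p = 3.2e-05) and its fall was not beyond 1.5-fold by the test for that size (adjusted p = 1). The difference between these genes was not tested. Foxm1, a transcription factor of G2 and M genes, fell 1.44-fold (log2 fold change -0.53 ± 0.094 SE, adjusted p = 0.000145) and was the other faller that did not pass the 1.5-fold test. Mybl2, which works with Foxm1 on the same promoters, fell 1.80-fold (log2 fold change -0.85 ± 0.11 SE, adjusted p = 4.87e-06).

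The other members of the mitosis group fell between 1.91-fold and 3.25-fold. They were Nusap1 at -1.70 on the log2 scale, a microtubule-binding protein of the spindle, the polo-like kinase Plk1 at -1.38, the kinesin Kif11 at -1.36, which pushes the spindle poles apart, and the kinetochore protein Cenpf at -1.28. The phosphatase Cdkn3 stood at -1.18, the chromatin protein Hmgb2 at -1.14, the spindle pole kinase Aurka at -1.11, and the proliferation antigen Mki67 at -1.09. The smallest of these falls were those of Birc5 (survivin), a subunit of the chromosomal passenger complex, at -0.98, and of Plk4, the kinase of centriole duplication, at -0.93. All 10 passed the test, with adjusted p from 1.81e-09 (Hmgb2) to 1.62e-06 (Plk4).

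The same libraries were often highest or lowest across the mitosis genes. Vehicle replicate 1 was the highest vehicle library in 21 of the 25 genes, and TTX replicate 3 the highest TTX library in 16. Vehicle replicate 5 was the lowest of its group in 12 and vehicle replicate 2 in 10, whereas TTX replicate 5 was the lowest TTX library in 9.

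Marker genes of the cell types in the cultures moved with TTX as well, and their part in the changes of the division genes was not tested. Their calls stand against a background of 35% of all tested genes called lower and 35.4% called higher. The 8 tested markers of oligodendrocyte precursors summed to 970.1 to 1011 CPM in the TTX libraries and 577 to 681 CPM in the vehicle libraries; 5 rose, 1 fell (Pdgfra) and 2 did not pass. The 10 astrocyte markers summed to 15676 to 17591 CPM with TTX and 10383 to 12155 CPM with vehicle, with 6 that rose and 2 that fell (Slc1a2 and Sox9). Gfap alone averaged 9701 CPM with TTX and 5363 CPM with vehicle. Aqp4, which did not pass, had 1795 and 1792 CPM in TTX replicates 1 and 2. In TTX replicates 3 to 5 Aqp4 had 340, 272 and 328 CPM, against 1048.5 to 1219 CPM with vehicle. The 7 tested markers of neural progenitors summed to 2522 to 2844 CPM with TTX and 1849 to 2199 CPM with vehicle, with 5 that rose and 1 that fell (Pax6). The markers of vascular and meningeal cells summed to 85.7 to 109.9 CPM with TTX and 111 to 141 CPM with vehicle, and 5 of 9 tested fell. Cspg4 is both on this list and on that of oligodendrocyte precursors. It averaged 33.0 CPM with TTX and 35.3 CPM with vehicle and did not pass. The 10 microglia markers summed to 83.0 to 239 CPM with TTX and 83.7 to 130.5 CPM with vehicle, with 3 that rose, and the 10 neuron markers to 5456 to 5687 CPM with TTX and 5292 to 5704 CPM with vehicle, with 3 that rose and 3 that fell. No marker was at 0 in every library, the lowest being Cldn5 of endothelial cells with 51 counts in all.

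**Figure D2:**
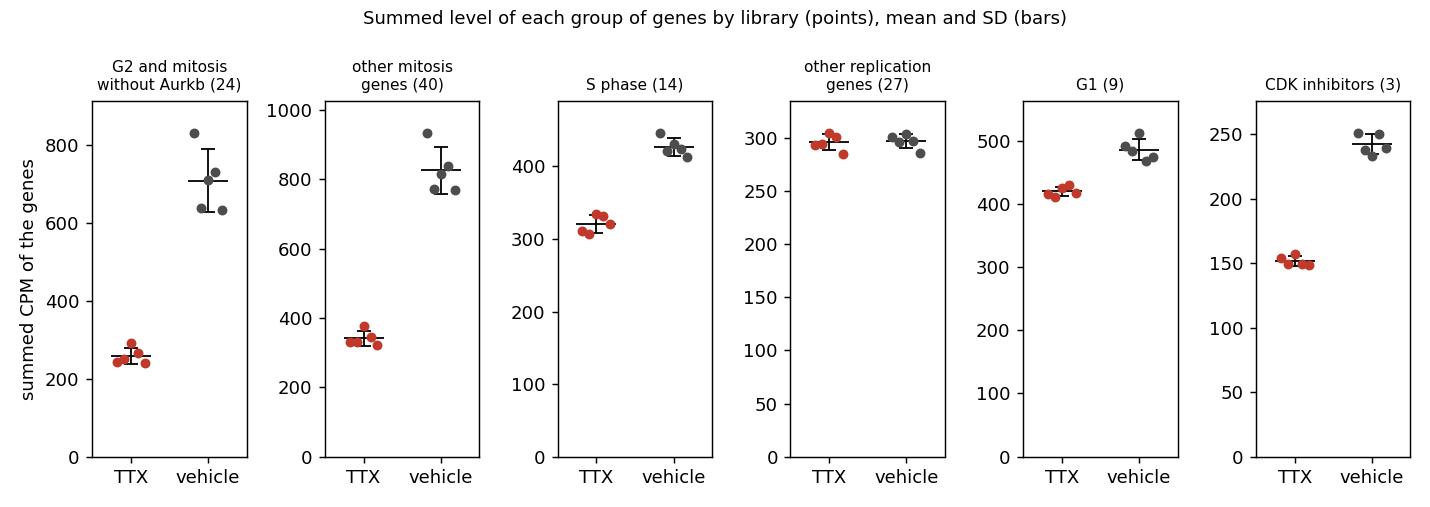
Summed CPM (y axes, each from 0) of each group of genes in each library, with TTX left and vehicle right in every panel; points are libraries, horizontal bars means and whiskers SD (n = 5), and the number of genes stands in brackets. The mitosis genes without Aurkb average 258 CPM with TTX against 708 CPM with vehicle, and with Aurkb 673 CPM against 1005 CPM. The other replication genes average 295.6 CPM with TTX against 297 CPM with vehicle. Their sum includes Gins2, which alone averages 31.0 CPM with TTX and 11.2 CPM with vehicle.

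The promoters of the mitosis members were searched for the CHR word TTTGAA and for the CCAAT box CCAAT, which binds the factor NF-Y, on both strands. Windows of 250 bases before to 50 bases after the annotated start came from RefSeq on assembly GRCr8, a build other than the rn6 of the authors' processing, and 38 of the 52 members had an entry. A gene with several windows was counted as holding a word if any of its windows held it. For 5 of the mitosis genes described above, the 250 bases before the start are printed 5′ to 3′ on the gene's strand, with matches in capitals (TTTGAA or TTCAAA for CHR, CCAAT or ATTGG for the CCAAT box, and the E2F-type word of Cdk1). Ccnb1 is shown because it fell 3.71-fold and its window holds no CHR word. The stretch of Top2a lies at chr10:84473094-84473343 (minus strand), Ccnb2 at chr8:79981659-79981908 (minus strand), Cdc20 at chr5:137255800-137256049 (minus strand), Cdk1 at chr20:19265043-19265292 (plus strand) and Ccnb1 at chr2:33655226-33655475 (minus strand).
Top2a: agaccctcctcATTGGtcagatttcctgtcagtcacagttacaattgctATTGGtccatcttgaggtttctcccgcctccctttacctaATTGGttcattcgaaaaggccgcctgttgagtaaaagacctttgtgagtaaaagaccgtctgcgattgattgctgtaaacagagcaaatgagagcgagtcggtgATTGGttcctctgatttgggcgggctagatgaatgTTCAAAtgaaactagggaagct
Ccnb2: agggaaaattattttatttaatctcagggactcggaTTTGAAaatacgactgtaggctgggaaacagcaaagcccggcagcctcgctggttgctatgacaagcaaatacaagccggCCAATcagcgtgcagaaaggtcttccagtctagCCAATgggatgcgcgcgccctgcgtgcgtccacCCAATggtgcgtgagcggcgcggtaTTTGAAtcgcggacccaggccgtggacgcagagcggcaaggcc
Cdc20: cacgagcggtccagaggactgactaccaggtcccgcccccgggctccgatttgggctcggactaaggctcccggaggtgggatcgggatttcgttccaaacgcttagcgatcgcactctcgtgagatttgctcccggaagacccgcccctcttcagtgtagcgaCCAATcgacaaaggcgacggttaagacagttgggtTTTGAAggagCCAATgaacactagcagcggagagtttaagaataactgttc
Cdk1: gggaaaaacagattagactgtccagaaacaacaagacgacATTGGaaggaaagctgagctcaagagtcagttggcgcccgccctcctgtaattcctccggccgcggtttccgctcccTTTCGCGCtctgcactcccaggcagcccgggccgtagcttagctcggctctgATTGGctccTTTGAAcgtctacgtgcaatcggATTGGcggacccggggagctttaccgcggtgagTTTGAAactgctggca
Ccnb1: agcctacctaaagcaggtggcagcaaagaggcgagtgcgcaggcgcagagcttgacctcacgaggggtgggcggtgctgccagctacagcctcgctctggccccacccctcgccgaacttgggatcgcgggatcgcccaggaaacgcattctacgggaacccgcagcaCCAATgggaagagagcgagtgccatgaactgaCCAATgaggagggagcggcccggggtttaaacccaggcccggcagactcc

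The CHR word was present in 14 of 21 mitosis members with an entry (66.7%), against 11.9% of 10121 tested genes and 19.4% of all 27457 genes with a promoter window. Aurkb, the only mitosis member that rose, had no entry, and neither had Ccna2, Tpx2, Foxm1 and Ube2c. Every tested mitosis member with an entry therefore fell. The CCAAT box was present in 16 of 21 (76.2%), against 37.7% of tested genes and 39.6% of all genes. Both occurred together in 12 of 21 (57.1%), against 4.85% of tested genes and 7.96% of all genes. Of the 14 members with a CHR word, 13 had one that began no more than 100 bases before the start or lay after it, as had 41.8% of the tested genes with the word; this distance was chosen after the positions were seen. The median log2 fold change was -1.49 in the 14 members with the word (from -1.97 to -0.93) and -1.15 in the 6 tested members with an entry and without it (from -1.89 to -0.48), which is given as a description with no test. A match of letters is not a shown binding site, and the lack of one says only that these letters are not in the window.

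Aurkb, the kinase of the chromosomal passenger complex, went the other way from its group. It had 433, 419, 386, 383 and 453 CPM in the 5 TTX libraries, against 279, 312, 311, 289 and 293 CPM in the 5 vehicle libraries. The lowest TTX library, replicate 4, lay above the highest vehicle library, replicate 2, and Aurkb was 1.40-fold higher (log2 fold change 0.48 ± 0.047 SE, adjusted p = 3.94e-07). Its partners in the complex fell, with log2 fold changes of -0.98 for Birc5, -1.22 for Cdca8 (borealin) and -0.33 for Incenp. Per transcript length Aurkb also stood apart in level, at 225 ± 15.7 FPKM with TTX and 159 ± 8.17 FPKM with vehicle. In the vehicle libraries that was 3.89 times the FPKM of the next mitosis gene, Hmgb2, and 12.8 times that of its median fellow. How the authors assigned reads of overlapping or similar genes is not given here, and its part in the Aurkb value was not tested. With Aurkb included, the summed CPM of the mitosis genes was 673 ± 16.2 with TTX and 1005 ± 71.3 with vehicle.

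The S phase genes were divided. Of 14, 7 fell, 1 rose and 6 did not pass, with a median log2 fold change of -0.22; 50% were called lower against the background of 35%. Rrm2, Uhrf1 and Mcm5 were the 3 that passed the test for a fall beyond 1.5-fold. The summed CPM was 321 ± 12.1 with TTX and 427 ± 12.5 with vehicle. Rrm2 alone averaged 31.4 CPM with TTX and 91.8 CPM with vehicle, so most of the fall in the sum was its own.

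The enzymes that supply nucleotides differed in the size of their change. Rrm2, the regulated small subunit of ribonucleotide reductase, had 29.0, 28.04, 34.4, 33.7 and 32.1 CPM in the 5 TTX libraries, against 101, 91.1, 86.4, 94.3 and 86.5 CPM in the 5 vehicle libraries. Each TTX library held well under the lowest vehicle library, replicate 3, and Rrm2 was 2.92-fold lower (log2 fold change -1.55 ± 0.060 SE, adjusted p = 1.6e-11). Rrm1, the large subunit of the same enzyme, averaged 60.4 ± 4.47 CPM with TTX and 73.2 ± 3.08 CPM with vehicle and fell 1.21-fold (log2 fold change -0.28 ± 0.048 SE, adjusted p = 0.00012). Tyms, thymidylate synthase, averaged 9.63 ± 0.780 CPM with TTX and 9.41 ± 0.816 CPM with vehicle and did not pass (log2 fold change 0.03 ± 0.076 SE, adjusted p = 0.702).

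Pcna, the sliding clamp of DNA polymerases, had 62.2, 59.6, 61.6, 62.4 and 59.9 CPM in the 5 TTX libraries, against 73.6, 73.5, 75.6, 75.1 and 74.9 CPM in the 5 vehicle libraries. The spread inside each group was small and the groups did not overlap, for a fall of 1.22-fold (log2 fold change -0.29 ± 0.026 SE, adjusted p = 1.48e-07). Uhrf1, which recognises hemimethylated DNA behind the fork, had 5.06, 5.11, 5.15, 6.71 and 5.11 CPM in the 5 TTX libraries, against 9.84, 9.95, 11.02, 10.0 and 8.86 CPM in the 5 vehicle libraries. TTX replicate 4 was higher than the other 4 TTX libraries but below every vehicle library, and the fall was 1.83-fold (log2 fold change -0.87 ± 0.090 SE, adjusted p = 6.65e-07). Dnmt1, the maintenance methyltransferase that Uhrf1 recruits, averaged 46.3 ± 1.53 CPM with TTX and 48.2 ± 2.62 CPM with vehicle and did not pass (log2 fold change -0.06 ± 0.041 SE, adjusted p = 0.226).

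The subunits of the MCM helicase, which form a single hexamer, moved in different directions. Mcm5 had 6.17, 6.30, 7.46, 6.39 and 7.68 CPM in the 5 TTX libraries, against 13.0, 12.05, 14.2, 10.4 and 11.2 CPM in the 5 vehicle libraries. The groups did not overlap, and Mcm5 was 1.79-fold lower (log2 fold change -0.84 ± 0.093 SE, adjusted p = 1.47e-06). Mcm7 had 16.9, 18.4, 16.9, 17.8 and 19.2 CPM in the 5 TTX libraries, against 11.5, 12.4, 12.7, 10.8 and 12.5 CPM in the 5 vehicle libraries. All TTX libraries exceeded all vehicle libraries, and Mcm7 was 1.49-fold higher (log2 fold change 0.58 ± 0.058 SE, adjusted p = 5.32e-07), the only S phase member that rose. Mcm3 fell 1.58-fold (log2 fold change -0.66 ± 0.087 SE, adjusted p = 9.13e-06) and Mcm4 fell 1.22-fold (log2 fold change -0.29 ± 0.036 SE, adjusted p = 4.91e-06). Mcm2 (log2 fold change 0.06 ± 0.054 SE, adjusted p = 0.334) and Mcm6 (log2 fold change -0.13 ± 0.071 SE, adjusted p = 0.112) did not pass, and neither did the helicase loader Cdc6 at -0.17 nor the helicase subunit Cdc45 at 0.23. Cdc6 was the lowest of the 51 members per transcript length, at 0.362 ± 0.0957 FPKM with TTX and 0.402 ± 0.0282 FPKM with vehicle, and its TTX libraries ran from 0.708 to 1.27 CPM, on both sides of the vehicle libraries.

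The promoters of Mcm5 and Mcm7 are shown because these subunits moved in opposite directions while both windows hold E2F-type words. The words searched were TTTGGCGC, TTTCCCGC, TTTCGCGC and TTTGGCGG, on both strands; some overlap each other or a CCAAT box, and the capitals then run on. The 250 bases before the start lie at chr19:13488563-13488812 (plus strand) for Mcm5 and at chr12:22163179-22163428 (minus strand) for Mcm7, from the same RefSeq windows.
Mcm5: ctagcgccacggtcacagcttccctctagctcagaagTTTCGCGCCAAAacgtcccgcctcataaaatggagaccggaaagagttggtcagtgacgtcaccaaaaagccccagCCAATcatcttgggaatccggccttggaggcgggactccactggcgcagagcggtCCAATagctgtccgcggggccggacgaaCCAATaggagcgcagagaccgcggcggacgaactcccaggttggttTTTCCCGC
Mcm7: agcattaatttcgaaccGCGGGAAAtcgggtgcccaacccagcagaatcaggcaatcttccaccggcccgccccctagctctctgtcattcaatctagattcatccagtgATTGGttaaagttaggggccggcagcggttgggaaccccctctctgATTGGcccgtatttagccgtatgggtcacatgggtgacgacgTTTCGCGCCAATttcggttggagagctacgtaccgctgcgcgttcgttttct

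An E2F-type word was present in 9 of 11 S phase members with an entry (81.8%) and in 1 of 21 mitosis members (4.76%), which was Cdk1. The share was 4.26% of tested genes and 2.44% of all genes. Among the 9 is Uhrf1, which has several windows, not all of them with such a word. The CHR word was present in 1 of the 11 S phase members, Mcm2 (9.09%), and the CCAAT box in 9 (81.8%). Neither the CHR nor an E2F-type word was found in the 4 G1 members or the 2 CDK inhibitors with an entry.

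The G1 genes moved in both directions. Of 9, 3 fell, 3 rose and 3 did not pass, with a median log2 fold change of 0.06, close to that of all genes, and the 33.3% called lower lie near the background of 35%. The D cyclins, which answer to mitogens, did not move as one. Ccnd3 had 55.1, 54.9, 59.9, 57.5 and 57.1 CPM in the 5 TTX libraries, against 103, 99.3, 106, 104 and 101 CPM in the 5 vehicle libraries. The groups were far apart for their small spread, and Ccnd3 was 1.81-fold lower (log2 fold change -0.85 ± 0.031 SE, adjusted p = 6.96e-12), the only G1 member past 1.5-fold. Ccnd1 had 91.7, 90.5, 106, 105 and 98.6 CPM in the 5 TTX libraries, against 135, 130.5, 143, 117 and 122 CPM in the 5 vehicle libraries. Every TTX library was below every vehicle library, and Ccnd1 fell 1.32-fold (log2 fold change -0.40 ± 0.057 SE, adjusted p = 2e-05). Ccnd2 averaged 128 ± 5.51 CPM with TTX and 124 ± 2.19 CPM with vehicle, with groups that overlapped, and did not pass (log2 fold change 0.04 ± 0.030 SE, adjusted p = 0.192). Per transcript length Ccnd2 was the highest D cyclin in both groups.

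Their partner kinase Cdk4 had 90.7, 91.2, 89.1, 98.5 and 97.0 CPM in the 5 TTX libraries, against 82.6, 86.6, 86.7, 80.2 and 82.9 CPM in the 5 vehicle libraries. The lowest TTX library, replicate 3, was above the highest vehicle library, and Cdk4 was 1.11-fold higher (log2 fold change 0.15 ± 0.034 SE, adjusted p = 0.000972). Cdk6, the other kinase of the D cyclins, averaged 2.19 ± 0.205 CPM with TTX and 2.06 ± 0.324 CPM with vehicle and did not pass (log2 fold change 0.09 ± 0.13 SE, adjusted p = 0.56). Ccne1, cyclin E1, had 17.2, 15.8, 18.5, 18.1 and 17.3 CPM in the 5 TTX libraries, against 22.9, 23.1, 24.6, 22.5 and 23.4 CPM in the 5 vehicle libraries. It fell 1.34-fold without overlap between the groups (log2 fold change -0.42 ± 0.047 SE, adjusted p = 1.69e-06). Ccne2, cyclin E2, had 7.72, 7.76, 7.30, 6.02 and 6.29 CPM in the 5 TTX libraries, against 6.13, 5.57, 6.22, 5.67 and 6.20 CPM in the 5 vehicle libraries. TTX replicate 4 lay within the vehicle range and TTX replicate 5 just above it, and the call of higher, 1.18-fold (log2 fold change 0.24 ± 0.086 SE, adjusted p = 0.0229), was lost when any one of 5 libraries was left out, with adjusted p from 0.0508 to 0.068: TTX replicate 1, 2 or 3, or vehicle replicate 2 or 4. Cdk2, the kinase of the E cyclins, had 10.2, 9.99, 9.55, 10.0 and 10.48 CPM in the 5 TTX libraries, against 7.83, 9.05, 9.04, 7.72 and 6.87 CPM in the 5 vehicle libraries. All TTX libraries were above the vehicle libraries, and Cdk2 was 1.24-fold higher (log2 fold change 0.31 ± 0.078 SE, adjusted p = 0.00241). E2f1, the transcription factor released at the end of G1, averaged 6.76 ± 0.369 CPM with TTX and 6.49 ± 0.757 CPM with vehicle and did not pass (log2 fold change 0.06 ± 0.085 SE, adjusted p = 0.54).

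**Figure D3:**
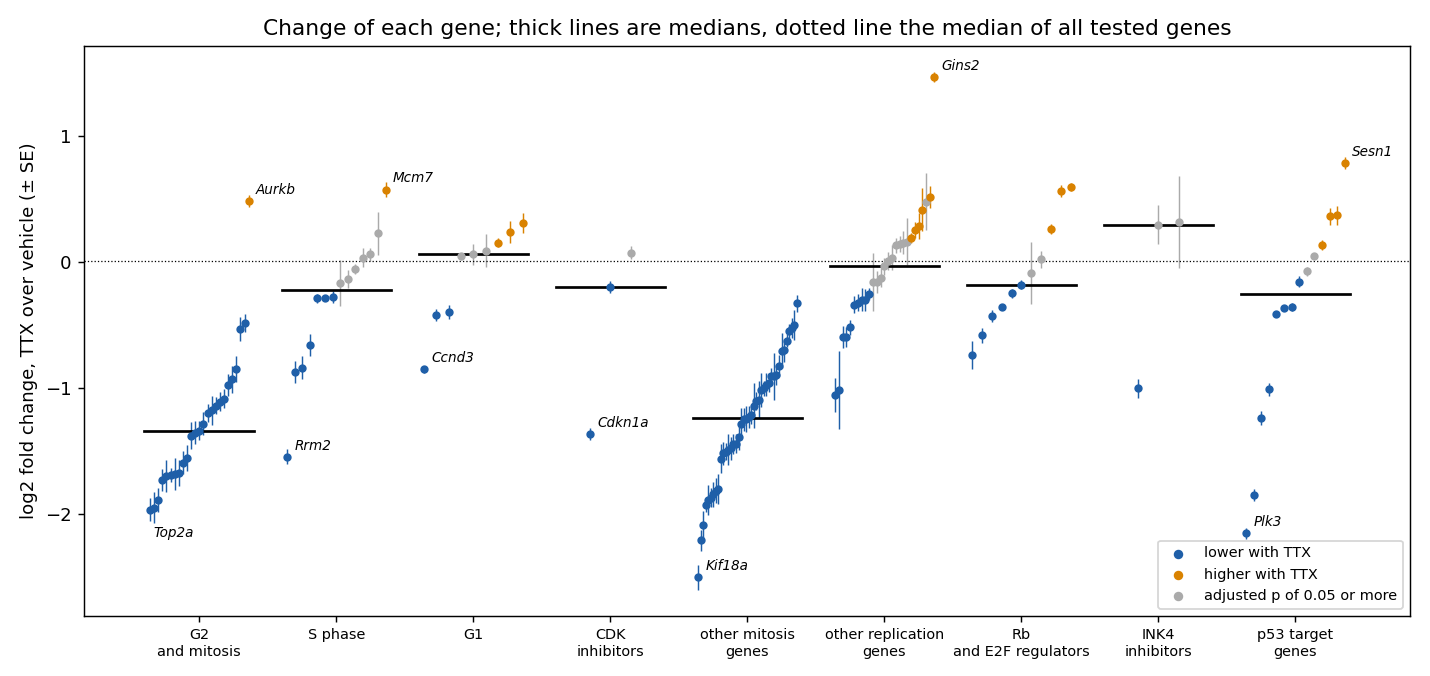
Log2 fold change, TTX over vehicle, of each tested gene (points, with SE whiskers) by group along the x axis; blue marks genes lower with TTX, orange genes higher with TTX and grey those that did not pass, thick lines are group medians and the dotted line is the median of all tested genes. The medians lie at -1.34 for the G2 and mitosis members and -1.24 for the other mitosis genes, at -0.22 for S phase, at 0.06 for G1 and at -0.20 for the CDK inhibitors.

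The CDK inhibitors of the Cip/Kip family restrain the cycle and often rise when cells leave it. Here 2 of 3 fell and 1 did not pass, against 35% of all tested genes called lower and 70.5% called in either direction. Cdkn1a (p21), which blocks CDK2 complexes and binds PCNA, had 50.7, 50.1, 54.5, 48.9 and 50.9 CPM in the 5 TTX libraries, against 142, 124, 135, 136 and 120.4 CPM in the 5 vehicle libraries. The TTX libraries lay close together and far below the vehicle libraries, and Cdkn1a was 2.58-fold lower (log2 fold change -1.37 ± 0.045 SE, adjusted p = 2.62e-12). Cdkn1b (p27) had 78.3, 76.3, 79.6, 76.4 and 73.1 CPM in the 5 TTX libraries, against 88.4, 89.6, 76.4, 89.7 and 95.4 CPM in the 5 vehicle libraries. Vehicle replicate 3 lay inside the TTX range, and the fall was 1.15-fold (log2 fold change -0.20 ± 0.048 SE, adjusted p = 0.00208). Cdkn1c (p57) had 24.8, 23.1, 23.2, 24.3 and 24.9 CPM in the 5 TTX libraries, against 20.3, 23.9, 22.1, 24.3 and 23.5 CPM in the 5 vehicle libraries. The groups overlapped and Cdkn1c did not pass (log2 fold change 0.07 ± 0.050 SE, adjusted p = 0.195). Summed, the inhibitors held 152 ± 3.66 CPM with TTX and 242 ± 7.82 CPM with vehicle. Cdkn1a alone averaged 51.0 CPM with TTX and 131.6 CPM with vehicle, so most of the fall in the sum was its own.

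Cdkn1a is also a target of p53, and the other p53 targets on a list of 15, of which 14 were tested, were mixed. Of these 14, 8 fell, 4 rose (Sesn1, Bbc3, Tp53inp1 and Bax) and 2 did not pass, with a median log2 fold change of -0.26. The 57.1% called lower stand against 35% of all tested genes, of which 35.4% were called higher. The 3 with the smallest p were Plk3, a stress-induced kinase (log2 fold change -2.15 ± 0.043 SE, adjusted p = 1.63e-14), Sesn2, an inhibitor of mTORC1 signalling (log2 fold change -1.85 ± 0.046 SE, adjusted p = 1.42e-13), and Btg2, an antiproliferative gene (log2 fold change -1.24 ± 0.057 SE, adjusted p = 1.06e-10), all lower. Plk3 and Btg2 are also known as genes induced by neuronal activity. Among the INK4 inhibitors of Cdk4 and Cdk6, Cdkn2c (p18) fell (log2 fold change -1.004 ± 0.078 SE, adjusted p = 3.26e-08), while Cdkn2b (log2 fold change 0.30 ± 0.15 SE, adjusted p = 0.101) and Cdkn2a (log2 fold change 0.32 ± 0.37 SE, adjusted p = 0.452) did not pass.

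Mitosis genes outside the 52 also fell, but their list was chosen with earlier results of these data known and is no separate support. Of the 47 on this list, 40 were tested, and all 40 fell, 32 of them beyond 1.5-fold and 39 without overlap between the groups. Of all tested genes, 35% were called lower, 8.44% fell beyond 1.5-fold and 57.4% were without overlap in either direction. The median log2 fold change of the 40 was -1.24, from -2.51 for Kif18a to -0.33 for Incenp. Those with the smallest p were Ccnf (cyclin F), which averaged 10.3 ± 0.890 CPM with TTX and 39.3 ± 1.20 CPM with vehicle (log2 fold change -1.93 ± 0.055 SE, adjusted p = 6.72e-13), the spindle protein gene Ckap2 with 21.1 ± 1.74 CPM with TTX and 97.8 ± 12.9 CPM with vehicle (log2 fold change -2.21 ± 0.084 SE, adjusted p = 1.19e-11), and Kif18a, a kinesin that limits chromosome movement, with 3.09 ± 0.502 CPM with TTX and 17.6 ± 1.43 CPM with vehicle (log2 fold change -2.51 ± 0.10 SE, adjusted p = 1.83e-11). The CHR word was present in 28 of the 42 with a promoter entry (66.7%), and an E2F-type word in 1 (2.38%). The summed CPM of the 40 genes was 341 ± 21.2 with TTX and 826 ± 67.6 with vehicle.

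Replication genes outside the 52 were mixed. Of 27 tested, 10 fell, 6 rose (Gins2, Gins3, Prim1, Fen1, Pole and Chaf1b) and 11 did not pass, so the 37.0% called lower lie near the background of 35%. The rises of Pole and Chaf1b were lost without TTX replicate 3 (adjusted p = 0.0768 and 0.0971) and without vehicle replicate 4 (adjusted p = 0.063 and 0.0802), which left 4 that rose, and Chaf1b was also lost by limma-voom and without TTX replicate 2 or 5 or vehicle replicate 1 or 5 (adjusted p = 0.0599 to 0.1). The list had a median log2 fold change of -0.03 and summed levels of 295.6 ± 7.56 CPM with TTX and 297 ± 6.67 CPM with vehicle. Gins2, a subunit of the GINS complex of the replicative helicase, averaged 31.0 ± 1.24 CPM with TTX and 11.2 ± 0.294 CPM with vehicle and was 2.77-fold higher (log2 fold change 1.47 ± 0.042 SE, adjusted p = 5.95e-13). Slbp, which binds histone messages, fell (log2 fold change -0.52 ± 0.061 SE, adjusted p = 2.54e-06), and so did Mcm10, an initiation factor (log2 fold change -1.06 ± 0.14 SE, adjusted p = 6.5e-06). An E2F-type word was present in 14 of 25 of these genes (56%).

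Among 11 tested regulators of the retinoblastoma and E2F pathway, 6 fell, 3 rose and 2 did not pass, with a median of -0.18. The 54.5% called lower stand against 35% of all tested genes, of which 35.4% were called higher. The E2F partner Tfdp1 rose (log2 fold change 0.60 ± 0.028 SE, adjusted p = 1.5e-10), as did Tfdp2 (log2 fold change 0.57 ± 0.049 SE, adjusted p = 1.1e-07) and the pocket protein Rbl2, whereas Rb1, the retinoblastoma gene, fell (log2 fold change -0.36 ± 0.026 SE, adjusted p = 1.74e-08).

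**Figure D4:**
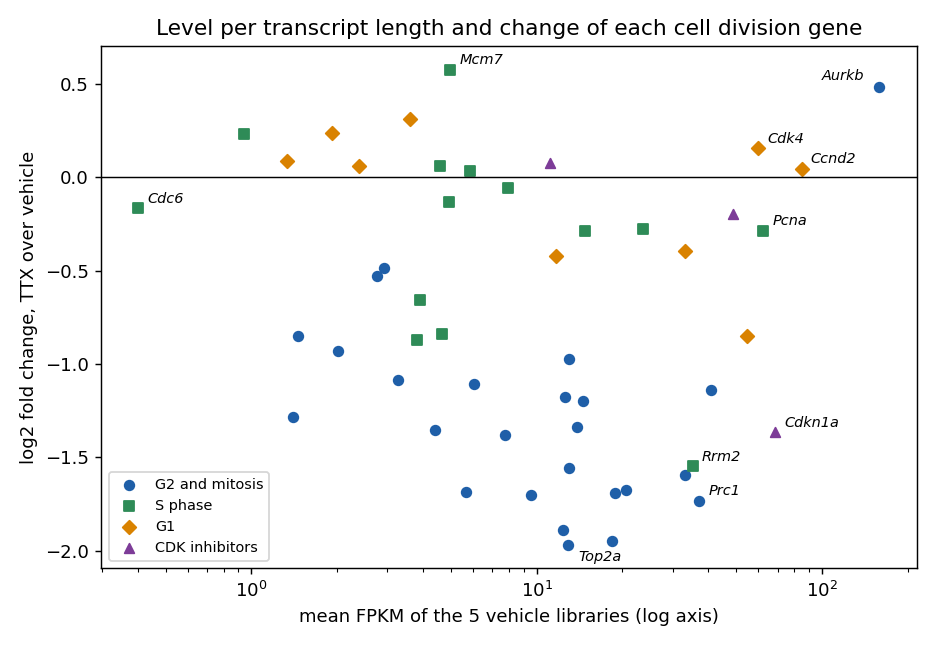
Log2 fold change, TTX over vehicle, of each of the 51 members (y axis) against its mean FPKM in the 5 vehicle libraries (x axis, log scale), with the symbol and colour giving the phase. Aurkb lies at the upper right with 159 FPKM, apart from the other mitosis genes, which lie between 1.40 and 40.9 FPKM and below 0.

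Per transcript length, in the FPKM deposited by the authors, Aurkb was the highest member in both groups and Ccnd2 the next, at 88.6 ± 3.82 FPKM with TTX and 85.1 ± 1.66 FPKM with vehicle. With TTX they were followed by Cdk4, Pcna and Cdkn1b, and with vehicle by Cdkn1a, Pcna and Cdk4, and neighbours in these orders were not tested against each other. Cdk4 stood at 67.1 ± 2.88 FPKM with TTX and 59.7 ± 2.21 FPKM with vehicle, Pcna at 51.7 ± 1.17 FPKM with TTX and 62.5 ± 0.806 FPKM with vehicle, and Cdkn1a at 26.9 ± 1.19 FPKM with TTX and 68.8 ± 4.98 FPKM with vehicle. Cdkn1b stood at 42.9 ± 1.504 FPKM with TTX and 48.7 ± 3.62 FPKM with vehicle. The median mitosis gene stood at 3.38 FPKM with TTX and 12.5 FPKM with vehicle, and the median G1 gene at 8.85 FPKM with TTX and 11.7 FPKM with vehicle.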

How the data were processed

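Per the labels' protocols, total RNA with a RIN over 9 went into the libraries. Reads were processed on rat rn6 with HISAT2 2.1.0, and StringTie and DESeq2 were also used, per the submitters' processing notes. The counting tool and its strand setting are not given in the sources used here. Genes that overlap or have near-identical copies are therefore uncertain.

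The authors deposited whole-number counts per gene and library, used as deposited. The deposited FPKM values, normalized for length and depth by the authors per the file headers, served only to compare levels between genes. The deposited log2 fold changes and FDR p-values are the authors', and only the members' calls were compared with them. The table has 14608 lines with 241 gene names repeated; the repeats are identical, so 254 lines were dropped. No line lacks a name.

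Counts were tested in R 4.3.3 with edgeR 4.0.16, using TMM and the two-sided quasi-likelihood F test. Genes were kept by filterByExpr (minimum count 10, minimum total 15), which left 13088 genes and removed 1266. Calls were made at an adjusted p under 0.05. SE was computed as |log2 fold change| divided by the root of F. The 1.5-fold test was glmTreat. The biological coefficient of variation was 7.59%. The pipeline was tested on simulated data. Total counts per library limit the precision of low genes. No replicates were merged, since each pair differed by more than sampling noise, with a chi-square of 9.94 to 22.97 per gene.

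Per-library values were given for the 8 G2 and mitosis, 5 S phase and 4 G1 members with the smallest p, all 3 CDK inhibitors and called members opposite to most of their group. In G1, where as many fell as rose, all called members are given. Of each other pathway list the 3 genes with the smallest p are given and, by name, those against the majority. Marker lists are given by summed level. Ccna2, Ube2c and other members given as means lie outside that rule and were picked with their values in view. The members and lists were chosen with earlier results of these data known. Promoter letters came from RefSeq windows. The alternatives comprised other scalings (upper quartile, library totals, RLE), a stricter filter (at least 1 CPM in 5 libraries) and none, limma-voom with limma 3.58.1, DESeq2 1.42.0, the replicate number as a block, and each library left out in turn.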

Additional observations from a re-analysis of the deposited data

Results flagged for a closer look

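Each group of 5 libraries was searched, gene by gene, for a single library far from the other 4 (a gap to the nearest library above 0.71 of the whole range). Of 102 groups of 5 searched (51 members in both treatments), 5 had such a library, and chance alone flags about 1 group in 20. Top2a in TTX replicate 3 had 18.7 CPM, against 16.0 to 16.6 CPM in the other TTX libraries. Bub1 in TTX replicate 3 had 10.9 CPM, against 9.07 to 9.54 CPM in the other TTX libraries, and Cenpf in TTX replicate 3 had 6.79 CPM, against 5.59 to 5.89 CPM. Uhrf1 in TTX replicate 4 had 6.71 CPM, against 5.06 to 5.15 CPM in the other TTX libraries. Ccnb2 in vehicle replicate 1 had 33.1 CPM, against 27.4 to 28.3 CPM in the other vehicle libraries. In all 5 cases the flagged library stayed on its own group's side of the other group, and the gene remained lower with TTX when that library was left out.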

How the results depend on the processing

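Under 18 alternatives, 36 members fell in each, 4 to 5 rose, and 24 (limma-voom) to 27 passed the 1.5-fold test, while 8774 to 9322 genes were called in all. The median log2 fold change stayed between -1.39 and -1.27 for G2 and mitosis, between -0.29 and -0.16 for S phase, between -0.25 and -0.17 for the CDK inhibitors and between 0.03 and 0.08 for G1. Leaving out 1 library at a time gave 36 members that fell, 4 to 5 that rose, 26 to 27 past 1.5-fold and 8916 to 9031 genes called. Of the 51 members, 50 kept their call under each alternative, and the exception, Ccne2, is described above. Each called member kept its direction, while the direction of those that did not pass was not compared. Among the other replication genes 10 fell under each alternative and 4 to 8 rose (4 to 7 with 1 library left out). Another scaling moved the median of all genes by at most 0.022. TTX and vehicle libraries with the same replicate number did not deviate together (r of -0.058 to 0.011), and 0 of the TTX libraries correlated best with its own number. No pairing by number was seen, but such correlations cannot show that libraries of the same number have no common origin. With the replicate block 9135 genes were called, 36 members fell and 5 rose. Summing repeated names gave no value of its own because the repeats are identical. DESeq2 was not run against 1.5-fold. Low counts limit Cdc6, whose 10 libraries hold 700 counts in all.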
